A study of Mus musculus with 39 samples.

Results

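The genes described are 35 markers of T cells and natural killer (NK) cells, measured by RNA sequencing in mouse spleen. They were taken by symbol from a list given for this work, and all 35 were found among the 54735 rows of the spleen table and among the 19058 genes tested. Of them, 24 mark T cells and 11 mark NK cells and cytotoxic lymphocytes. The mice were C57BL/6, 4 weeks old, and either wild type or labelled as a knockout of SXR/PXR, the nuclear receptor encoded by Nr1i2. From the perinatal period they received either DMSO as vehicle or PCB-153 (about 54 µg/kg/day), a polychlorinated biphenyl that persists in the body. There were 4 wild-type vehicle spleens, 5 wild-type PCB-153 spleens, 5 labelled-knockout vehicle spleens and 5 labelled-knockout PCB-153 spleens, and the labels give no other allele or agent. Nothing in the labels says that replicates are different animals or names their litters, so p-values measure the spread between these samples only, which may be technical.

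T cells recognise antigen through a receptor that signals through the CD3 chains and the kinases Lck and Zap70, with CD4 or CD8 as coreceptor. NK cells carry no such receptor and are instead steered by activating and inhibitory receptors, and they share the granule killing machinery of perforin and granzymes with cytotoxic T cells. In the young spleen both populations sit among far more abundant B cells and red blood cell precursors. Whole spleen was measured, so a lower level may come from fewer cells of a type or from less RNA per cell, and these cannot be told apart.

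The targeted gene was checked first. Nr1i2 was at 0.0 to 2.3 normalised reads in wild-type spleens and at 42.9 to 62.8 in those labelled knockout, so the spleen levels go against the label and the direction "labelled knockout against wild type" is used as a label only. A count per gene does not show which part of the transcript was read, and the cause of these Nr1i2 levels was not tested. Spleen libraries held 16.1 to 29.52 M reads (median 19.64 M). Labelled-knockout PCB-153 libraries 1 and 4 held many reads from exocrine pancreas genes. The summed normalised count of 18 such markers was 19413 and 157976.0 there, against 1330.3 in library 5 of the same group and 539.7 to 783.1 in the other 16. In libraries 1, 4 and 5 none of the 18 markers was at 0, and elsewhere 3 to 10 were at 0. Cela1 made up most of the sum in the other 16 libraries. Pancreatic genes took 0.744% of all normalised reads in library 4 and 0.0928% in library 1. Hepatocyte markers (8 genes) summed to 18331 in labelled-knockout vehicle library 4 and 7979 in wild-type PCB-153 library 1, against 3280.2 to 5457 elsewhere. As mean log2(normalised read count + 1), these markers stood at 9.79 and 8.46 in the same libraries. By that measure wild-type vehicle libraries 1 (7.2) and 4 (6.1) and wild-type PCB-153 library 5 (5.44) were raised too, against 2.44 to 4.52 in the rest. Results that rest on labelled-knockout PCB-153 libraries 1 and 4 are given with and without them. Library 5 of that group, where 15 of the 18 pancreatic markers were above 10 normalised reads, was kept in both settings.

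All 35 genes were above 0 in every spleen library. Their median normalised counts ran from 44.5 for Gzmb to 1457 for Tcf7. Per kilobase of exon, the mean level over 19 libraries was highest for Tcf7, a transcription factor of naive T cells, at 539.4 normalised reads per kb. It was followed by the chemokine Ccl5 (477.3), the lymph node homing receptor Ccr7 (476.6), the kinase Lck (462.3) and the adhesion receptor Cd2 (436.2). The lowest were Il2ra (22.1 per kb), the high-affinity chain of the interleukin-2 receptor, Ctla4 (25.7), an inhibitory receptor, and Eomes (29.4), a transcription factor of NK cells and memory T cells. From lowest to highest library, a single gene's level spanned 1.46-fold (Foxp3) to 6.05-fold (Gzmb). The order from Ccl5 to Cd2 does not separate these genes, since each of them varied at least 1.73-fold between libraries.

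The spleen identity of these levels was checked against the liver table of the same series, which was normalised separately. In 20 liver libraries the median was under 20 normalised reads for 31 of the 35 genes. The other 4 were Foxp3 (90.5), Zap70 (66.6), Tcf7 (65.0) and Cd247 (33.2). Foxp3, the master regulator of regulatory T cells, shares 31.5% of its exonic bases with other annotated genes, among them Ccdc22 on the opposite strand, whose liver median was 221.4. Cd247, the CD3 zeta chain, shares 60.3%, in part with Pou2f1 on the opposite strand, whose liver median was 118.6. Which strand setting was used in counting is not known here, so reads of these partners cannot be told apart from those of Foxp3 and Cd247, and both levels are uncertain. For Zap70 and Tcf7 no exonic overlap was found.

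**Figure D1:**
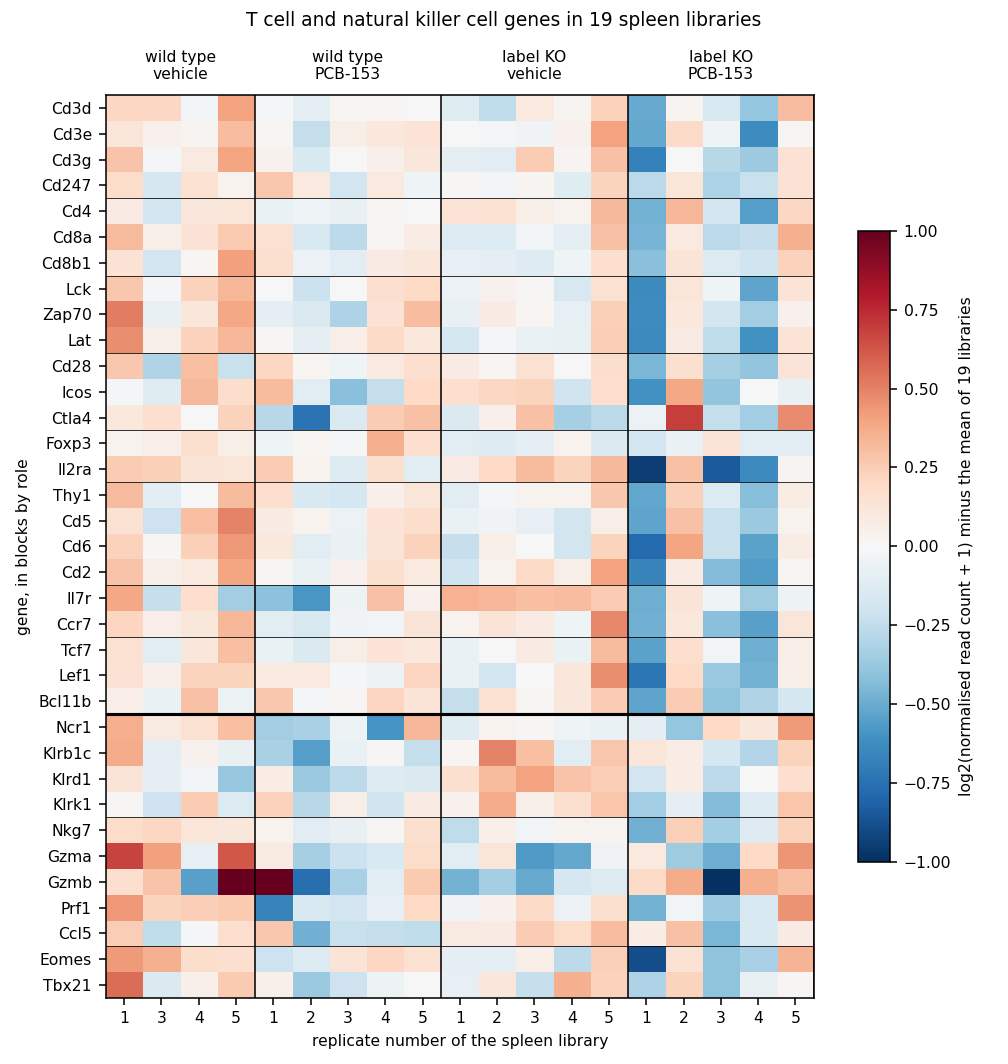
Each row is a gene and each column a spleen library, in 4 groups. Colour shows log2(normalised read count + 1) minus the gene's mean over 19 libraries, clipped at 1 in both directions. The thick line parts the 24 T cell genes above from the 11 NK and cytotoxic genes below. Labelled-knockout PCB-153 libraries 1 and 4 are blue across most T cell rows, and 16 of the 24 T cell genes have these libraries as their 2 lowest.

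The low end of most T cell genes lay in the 2 libraries with the most pancreatic reads. For 16 of the 24 T cell genes, labelled-knockout PCB-153 libraries 1 and 4 were the 2 lowest of all 19, and for 21 the single lowest library was one of them. Among the 11 NK and cytotoxic genes the counts were 0 and 2. Of all genes tested, 1461 (7.67%) had the same 2 lowest libraries. The share of all genes for the single lowest library was not computed, so the 21 and the 2 have no background beside them. Several NK and cytotoxic genes had lower counts, where ranks of libraries are noisier, and this was not allowed for. The summed level of the 24 T cell genes was 13368 to 16321 in wild-type vehicle, 12650 to 14904 in wild-type PCB-153, 13445 to 16681 in labelled-knockout vehicle and 9505 to 15413 in labelled-knockout PCB-153 spleens. Without libraries 1 and 4 the last group had 11994, 14827 and 15413, of which the lowest, library 3, lay below every library of the other 3 groups and the others lay within their ranges. Library 3 stood with libraries 1 and 4 in other marker lists too, although its pancreatic sum was 783.1. The B cell marker sum was 31860, 39178 and 32847 in libraries 1, 3 and 4, against 50174 or more in the other 16. The sum of 12 cell division genes was 111684, 105243 and 116898, against at most 96987 in the others. The summed level of the 11 NK and cytotoxic genes was 2151 to 2605, 1680 to 2255, 2065 to 2393 and 1638 to 2490 in the same order. The part of pancreatic tissue, or of what library 3 shares with libraries 1 and 4, in the low T cell levels was not tested.

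Promoter sequence was taken from RefSeq (GRCm38.p6) for the 25 of 35 members matched there, as the 250 bases before the first listed start. Shown are 2 genes that were low in libraries 1 and 4, Il2ra and Lck, and 2 genes of the NK and cytotoxic set whose lowest library was another one, Ncr1 and Prf1. Capitals mark exact matches, on either strand, to the motif words searched. The word for RUNX factors was TGTGGT. ETS factors were searched with the word AGGAAG. The word used for the T-box family, to which Eomes and Tbx21 belong, was GGTGTG. TCF and LEF factors, the family of Tcf7 and Lef1, were searched with CTTTGA. The word for GATA factors was AGATAA.
Il2ra (chr2:11642542-11642791, plus strand): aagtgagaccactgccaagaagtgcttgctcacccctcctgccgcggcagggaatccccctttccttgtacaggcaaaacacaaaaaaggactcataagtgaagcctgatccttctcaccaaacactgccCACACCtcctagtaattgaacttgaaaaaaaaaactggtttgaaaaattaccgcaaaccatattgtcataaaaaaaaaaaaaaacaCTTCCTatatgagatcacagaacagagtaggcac
Lck (chr4:129573642-129573891, minus strand): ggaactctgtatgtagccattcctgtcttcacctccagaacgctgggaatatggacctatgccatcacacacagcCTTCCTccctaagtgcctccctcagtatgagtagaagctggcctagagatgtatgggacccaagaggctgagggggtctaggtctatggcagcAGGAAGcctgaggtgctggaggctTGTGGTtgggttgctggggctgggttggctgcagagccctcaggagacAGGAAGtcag
Ncr1 (chr7:4337465-4337714, plus strand): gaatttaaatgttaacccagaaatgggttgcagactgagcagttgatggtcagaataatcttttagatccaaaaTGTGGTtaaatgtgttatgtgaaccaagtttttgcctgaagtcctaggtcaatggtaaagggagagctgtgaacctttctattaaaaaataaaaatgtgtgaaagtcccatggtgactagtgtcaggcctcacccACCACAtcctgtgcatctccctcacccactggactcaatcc
Prf1 (chr10:61297586-61297835, plus strand): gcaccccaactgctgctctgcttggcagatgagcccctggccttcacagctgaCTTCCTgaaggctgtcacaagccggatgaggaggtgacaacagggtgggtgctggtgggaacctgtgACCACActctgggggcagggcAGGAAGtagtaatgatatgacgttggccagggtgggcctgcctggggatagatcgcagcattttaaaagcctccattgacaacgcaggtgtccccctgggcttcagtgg
No 2 of these motif words overlapped in the windows shown. The RUNX word was found in 8 of the 25 members (32.0%) and in 14.2% of 27025 promoter windows of the same length. All 8 were Lck, Klrb1c, Klrk1, Ncr1, Nkg7, Prf1, Gzma and Gzmb, so 7 of them belong to the NK and cytotoxic set and 1 to the T cell set. No promoter was matched for Klrd1 and Ccl5 of the NK and cytotoxic set. Nor was one matched for Cd4, Cd8b1, Cd28, Icos, Thy1, Cd6, Cd2 and Ccr7 of the T cell set. The 7 and the 1 are thus not out of the full 11 and 24 genes. The ETS word was in 14 members (56.0%) against 29.2% of windows. The TCF/LEF word was in 3 (12.0%, against 14.0%), the T-box word in 3 (12.0%, against 16.2%) and the GATA word in 1 (4.0%, against 10.3%). A match is a description of the letters and not evidence of binding.

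PCB-153 was compared with vehicle in the spleens labelled knockout. Most T cell genes had a lower mean after PCB-153, but 1 member, Il2ra, fell by the test, and that call did not hold without libraries 1 and 4. In limma 0 members rose and 1 of 35 (2.86%) fell, where 2.52% of all genes tested were called lower and 2.78% higher, so the members' share was near the background. The mean was lower for 30 of 35 members, with a median log2 fold change of -0.21 (all genes, -0.01). By set, the median was -0.24 for the 24 T cell genes and -0.18 for the 11 NK and cytotoxic genes. An unadjusted p under 0.05 was reached by 11 members (31.4%), where 24.1% of all genes reached it. Without libraries 1 and 4, 0 members were called in limma (0.0683% of all genes lower, 0.063% higher), 2 had an unadjusted p under 0.05 (5.71%, where 13.1% of all genes did), 19 had a lower mean and the median was -0.03.

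**Figure D2:**
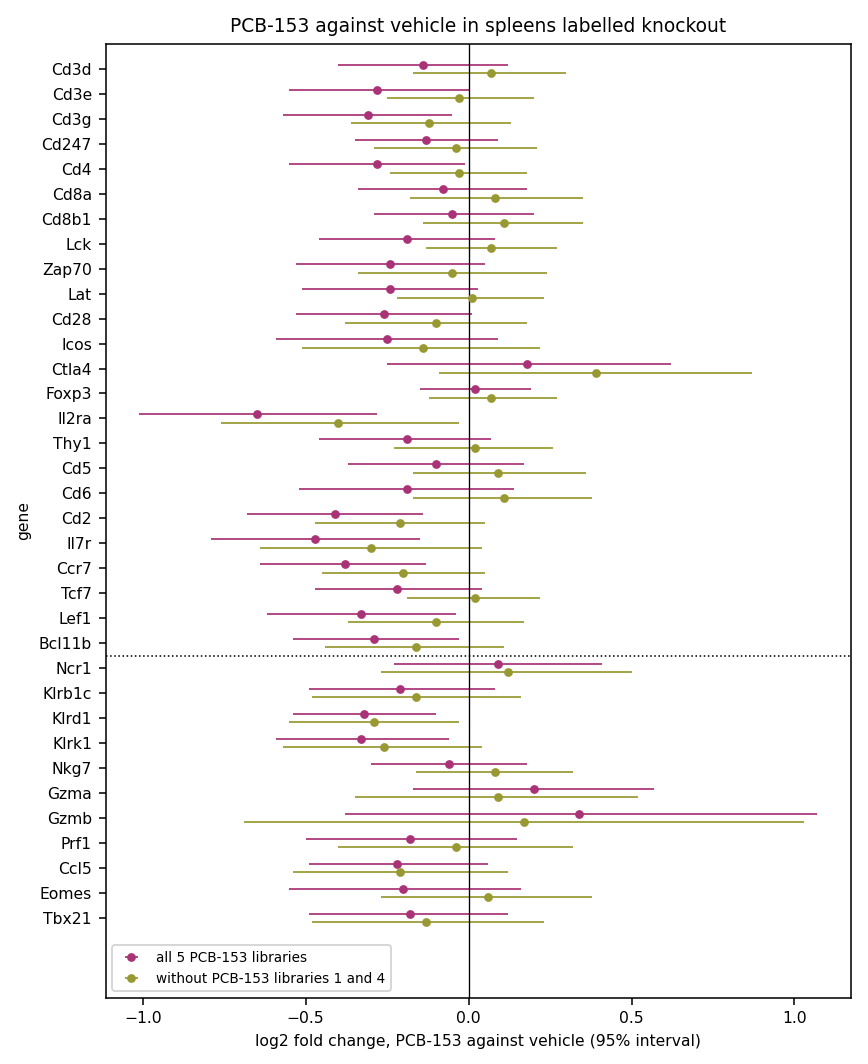
Points are limma log2 fold changes of PCB-153 against vehicle in spleens labelled knockout, with bars for 95% intervals, from all 5 PCB-153 libraries (purple) and without libraries 1 and 4 (olive). The dotted line parts T cell genes from NK and cytotoxic genes. The median over the 35 genes is -0.21 with all libraries and -0.03 without the 2.

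Il2ra (ENSMUSG00000026770.5, GRCm38 chromosome 2, 11642807 to 11693193) encodes CD25, which regulatory and activated T cells carry. Its normalised counts were 129.8, 141, 152.7, 143 and 154 under vehicle and 63.4, 151, 68.1, 78.5 and 125 after PCB-153. PCB-153 libraries 1, 3, 4 and 5 lay below all 5 vehicle libraries, library 5 only just, while library 2 was within their range. In library 3, which was among the low ones, the pancreatic marker sum was 783.1 and 10 of the 18 pancreatic markers were at 0 there. The means were 144 ± 9.9 (SD, n = 5) and 97.3 ± 38.8 (SD, n = 5), a log2 fold change of -0.65 (95% interval -1.01 to -0.28, limma adjusted p = 0.039). Without libraries 1 and 4 it was -0.40 (adjusted p = 0.334). Leaving out 1 library at a time ended the call for PCB-153 libraries 1, 3 and 4 and vehicle libraries 2, 3, 4 and 5, with log2 fold changes of -0.65 to -0.52 and adjusted p = 0.0678 to 0.12, and edgeR gave -0.58 (adjusted p = 0.06). The authors' deposited table gives -0.57 with an adjusted p of 0.0209.

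The other T cell genes did not pass limma. Cd2 (adhesion) had 650.2, 763, 852, 778 and 985 under vehicle and 469, 787, 551, 505 and 756 after PCB-153, a log2 fold change of -0.41 (adjusted p = 0.0617). Il7r, the interleukin-7 receptor chain that keeps naive T cells alive, had 1025, 1013, 993, 994 and 957 against 574, 879, 781, 627 and 777. It was the 1 member whose ranges did not overlap, with every PCB-153 library below every vehicle library, as for 2.81% of all genes tested (1.82% did so in the higher direction). Its log2 fold change was -0.47 (95% interval -0.79 to -0.15, adjusted p = 0.0685), and the ranges also did not overlap without libraries 1 and 4 (-0.30, adjusted p = 0.456), as for 4.97% of all genes (3.81% higher). Ccr7 had 953, 1018, 982, 903 and 1296 against 665, 1002, 696, 637 and 1009, a log2 fold change of -0.38 (adjusted p = 0.0677). B cell markers also fell in this comparison, as given below. The part of B cells in the Cd2 and Ccr7 levels was not tested. In DESeq2 on the recovered reads Il2ra, Cd2, Il7r, Ccr7 and the NK receptor gene Klrd1 were called lower (5 of 35, where 4.18% of all genes were called lower and 6.46% higher). The authors' deposited table also lists these 5 with an adjusted p under 0.05, with log2 fold changes from -0.57 to -0.32. No member was called in edgeR, where 2.35% of all genes were called lower and 2.81% higher.

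Cd3e, a signalling chain of the T cell receptor complex, and Cd4 were lowest in libraries 1 and 4. Cd3e (ENSMUSG00000032093.7, GRCm38 chromosome 9, 44998740 to 45009627) had 556, 547, 539, 570.3 and 732 under vehicle and 387, 633, 536, 356 and 558 after PCB-153. Libraries 1 and 4 stood apart, and the other 3 lay within or just below the vehicle range. Its log2 fold change was -0.28 with all libraries and -0.03 without those 2 (adjusted p = 0.202 and 0.947). Cd4, the helper coreceptor, had 989, 999, 938, 923 and 1127 against 648, 1131, 785, 612 and 1039 (-0.28, adjusted p = 0.187). Cd8a, the cytotoxic coreceptor, had 789, 789, 854, 810.2 and 1067 against 628, 929.8, 722, 740.4 and 1113 (-0.08, 95% interval -0.34 to 0.18). Lck had 1285, 1378, 1345, 1198 and 1487 against 859, 1451, 1297, 926 and 1468, with the 2 low values again in libraries 1 and 4. The transcription factor Lef1 stood at -0.33 with all libraries (adjusted p = 0.156) and -0.10 without the 2. Foxp3, whose level is uncertain for the overlap given above, was lowest of all 19 libraries in library 1, while library 4 lay within the vehicle range and library 3 above it. It had 271, 267, 275, 299 and 265 against 256, 279, 319.5, 271 and 272 and a log2 fold change of 0.02 (95% interval -0.15 to 0.19).

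The remaining T cell genes had intervals that reached or neared 0, and none passed. Of the CD3 chains, Cd3g stood at -0.31, Cd3d at -0.14 and Cd247 at -0.13 on the log2 scale, with adjusted p of 0.136, 0.519 and 0.461. Cd8b1, the partner chain of Cd8a, stood at -0.05. The kinase Zap70 and the adaptor Lat both stood at -0.24. Among costimulatory genes, Cd28 stood at -0.26 and Icos at -0.25, while Ctla4 stood at 0.18 with an interval of -0.25 to 0.62. The surface proteins Thy1, Cd5 and Cd6, of which Cd5 dampens receptor signalling, stood at -0.19, -0.10 and -0.19. Of the lineage factors, Tcf7 stood at -0.22 and Bcl11b, which maintains T cell identity, at -0.29.

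**Figure D3:**
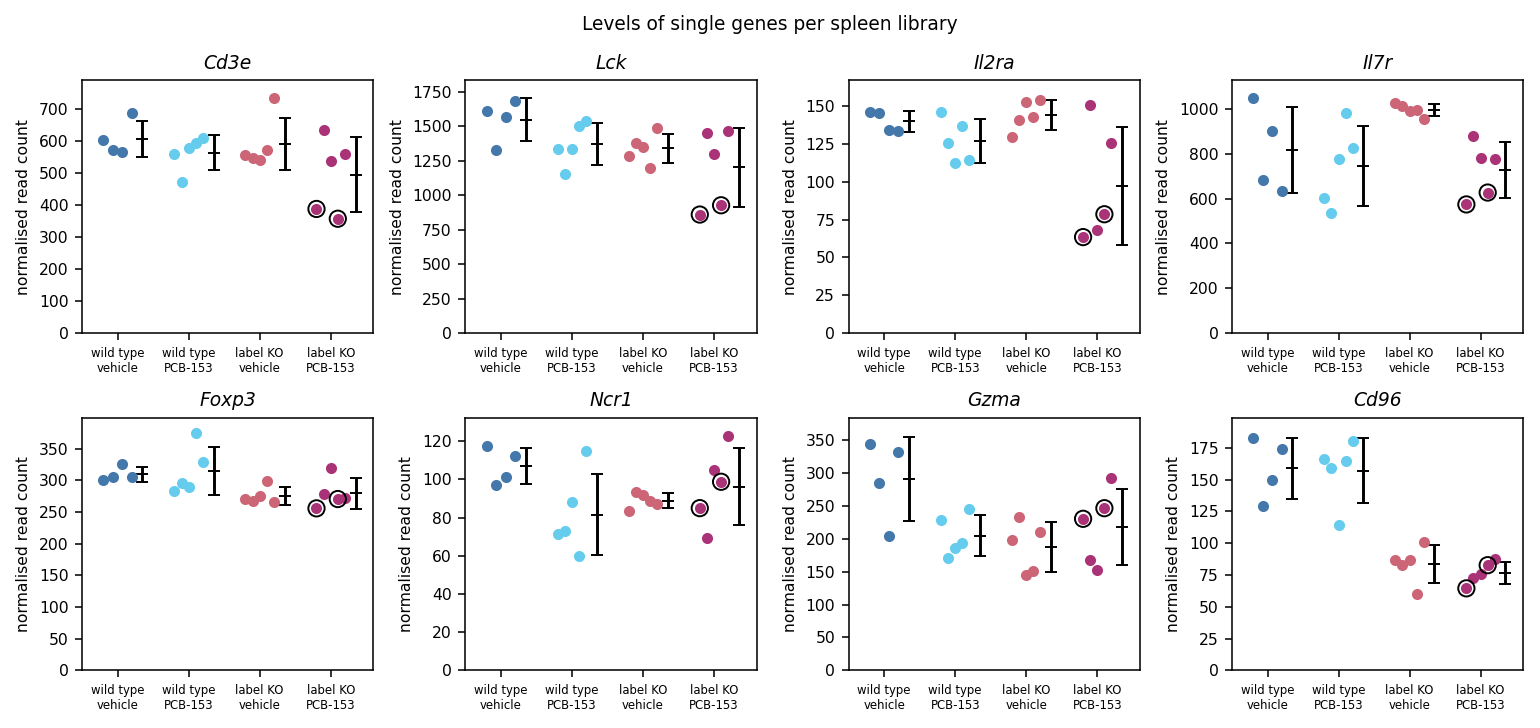
Normalised read counts of single genes per library (points, 4 groups of 4 or 5), with the mean and SD at the right of each group. Circles mark labelled-knockout PCB-153 libraries 1 and 4. Cd3e and Lck are low in the circled libraries, Il2ra is low in these and in library 3, and Cd96 is at 60.0 to 100.7 in all spleens labelled knockout against 114.2 to 182.5 in wild type.

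Among NK and cytotoxic genes PCB-153 moved no member past the limma test in the spleens labelled knockout. Klrd1, the CD94 chain of NK inhibitory receptors, had 251, 281, 297, 274 and 266 under vehicle and 197, 236, 188, 225 and 252 after PCB-153. The log2 fold change was -0.32 (95% interval -0.54 to -0.10, adjusted p = 0.0703) and -0.29 without libraries 1 and 4 (adjusted p = 0.317). Ncr1, the NK activating receptor NKp46, had 83.6, 93.2, 92.0, 88.6 and 86.9 against 84.9, 69.4, 105, 98.7 and 123 (0.09, 95% interval -0.23 to 0.41). The PCB-153 libraries lay on both sides of the vehicle range. Gzma, granzyme A, had 198, 233, 145, 150.4 and 209.8 under vehicle, against 230.0, 168, 246 and 291 in PCB-153 libraries 1, 2, 4 and 5 and, in library 3, a value below those 4 and within the vehicle range (0.20, 95% interval -0.17 to 0.57). Gzmb, granzyme B, had the widest interval, -0.38 to 1.07, with a PCB-153 value of 21.2 in library 3 and 54.8 to 62.1 in the other 4. The activating receptor gene Klrk1 (NKG2D) stood at -0.33 and Klrb1c (NK1.1) at -0.21. Ccl5 stood at -0.22, Prf1 at -0.18, Nkg7 at -0.06, and the transcription factors Eomes and Tbx21 (T-bet) at -0.20 and -0.18, with adjusted p from 0.33 to 0.778 for these 5.

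The labelled knockout was compared with wild type under vehicle. No member rose or fell (limma, 0.021% of all genes called higher and 0.0105% lower, and 0 members in edgeR and DESeq2). An unadjusted p under 0.05 was reached by 3 members (8.57%, where 10.5% of all genes did). In edgeR 0.021% and in DESeq2 0.142% of all genes were called higher, and 0.0105% and 0.0577% lower. The mean was lower for 26 of 35 members with a median log2 fold change of -0.11 (all genes, 0.01). Several marker lists of other cells also stood apart between the vehicle groups, with 0 genes called in each. The neutrophil list stood lower in the labelled knockout (median -0.72, 13 of 16 at an unadjusted p under 0.05), as did the megakaryocyte and platelet list (-0.29) and the cell division list (-0.26). Dendritic cell markers stood higher (median 0.15), with a summed level of 9081 to 9661 in the labelled knockout and 8214 to 8908 in wild type, without overlap. Macrophage and monocyte markers stood higher as well (median 0.24), at 40131 to 54438 and 34323 to 41954. The part of these cells in the members' values was not tested. The smallest p values among members were those of Klrd1 and Gzma. Gzma (ENSMUSG00000023132.8, GRCm38 chromosome 13, 113093825 to 113100981) had 344, 285, 203 and 331 in wild type and 198, 233, 145, 150.4 and 209.8 in the labelled knockout. The groups overlapped, through wild-type library 4, and the log2 fold change was -0.63 (95% interval -1.02 to -0.23, adjusted p = 0.353). Klrd1 went the other way, from 246, 209.8, 221 and 173 to 251, 281, 297, 274 and 266, a log2 fold change of 0.37 (95% interval 0.14 to 0.61, adjusted p = 0.353).

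The ranges of the 2 vehicle groups did not overlap for 5 members. Klrd1 lay higher in the labelled knockout (1 of 35, where 1.74% of all genes did). Foxp3, Ncr1, Nkg7 and Prf1 lay lower (4 of 35 or 11.4%, where 1.84% did). Ncr1 had 118, 97.1, 101 and 112 in wild type, all above the labelled-knockout libraries, and a log2 fold change of -0.26 (adjusted p = 0.572). Prf1, perforin, which forms the pore through which granzymes enter target cells, had 149.5, 129.5, 132 and 133 against 108, 114, 126, 106 and 124 (-0.23, adjusted p = 0.616). Nkg7, a cytotoxic granule protein, had 357, 362, 342 and 340.4 against 263, 325, 308, 321 and 319.7 (-0.19, adjusted p = 0.578), and Foxp3 300.1, 306, 327 and 305 against 271, 267, 275, 299 and 265 (-0.17, adjusted p = 0.504). In both vehicle groups the SD between libraries of Foxp3, Ncr1 and Prf1 was below the error of counting reads. For Nkg7 this held in wild type only, and for Klrd1 in neither group. The 4 of 35 are therefore not read as a result about the members. Each of these differences was small, and none passed the test over all genes.

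PCB-153 was compared with vehicle in wild-type spleens. No member was called in limma, where 0.0% of all genes were called in either direction, nor in edgeR (0.0% in either direction) or DESeq2 (0.00525% higher and 0.0105% lower). Lower means after PCB-153 were found for 32 of 35 members, with a median log2 fold change of -0.16 (all genes, 0.01) and an unadjusted p under 0.05 for 3, Prf1, Ncr1 and Gzma (8.57%, where 3.81% of all genes had one). Prf1 (ENSMUSG00000037202.6, GRCm38 chromosome 10, 61297833 to 61304680) had 149.5, 129.5, 132 and 133 under vehicle and 69.2, 99.7, 97.0, 105 and 127 after PCB-153, with no overlap (a lower range without overlap was found for 0.923% of all genes and a higher one for 0.462%). Its log2 fold change was -0.47 (95% interval -0.81 to -0.13, adjusted p = 0.943). Ncr1 after PCB-153 had 71.4, 72.7, 87.9, 60.1 and 115, with 1 library inside the vehicle range (-0.42, adjusted p = 0.943). Gzma after PCB-153 had 229, 171, 185, 194 and 244, overlapping the vehicle range (-0.49, adjusted p = 0.943). The median was -0.25 for the 11 NK and cytotoxic genes, all with a lower mean, and -0.14 for the 24 T cell genes. The 95% interval for Cd3e was -0.40 to 0.18 and for Cd4 -0.34 to 0.22.

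After PCB-153, the labelled knockout was compared with wild type. No member was called (limma, 0.0787% of all genes called in each direction, and 0 members in edgeR and DESeq2), and 5 had an unadjusted p under 0.05 (14.3%, where 10.9% of all genes did). In edgeR 0.247% and in DESeq2 0.75% of all genes were called higher, and 0.0944% and 0.483% lower. The mean was lower for 27 of 35 members, with a median of -0.15 (all genes, -0.00). All but 1 of the 24 T cell genes had a lower mean (23 of 24, median -0.19), and 4 of the 11 NK and cytotoxic genes did (median 0.06). With libraries 1 and 4 left out 0 members were called (0.378% of all genes higher, 0.0578% lower), 0 had an unadjusted p under 0.05 (15.5% of all genes did), the members' median was 0.02 and 15 of 35 had a lower mean. Il2ra stood at -0.46 (adjusted p = 0.315) and at -0.21 without the 2 libraries. Lat, the adaptor that links the receptor kinases to downstream signalling, stood at -0.31 and -0.07 (adjusted p = 0.361 and 0.793). No member's ranges failed to overlap (1.25% of all genes higher, 0.798% lower). The authors' deposited table for this comparison lists genes with an adjusted p under 0.05, and 0 members are in it.

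The difference between the 2 PCB-153 effects was tested as an interaction, and it shares the groups of the comparisons above. No member passed (limma, 0.0% of all genes in each direction, 2 members or 5.71% at an unadjusted p under 0.05, where 9.85% of all genes were, and 0 members in edgeR, with 0.0% of all genes called, and in DESeq2, with 0.11% higher and 0.063% lower). Those 2 were Gzma, with a log2 interaction of 0.69, and Ncr1, with 0.51, both higher in the labelled knockout than in wild type. The PCB-153 log2 fold change of Gzma was -0.49 in wild type and 0.20 in the labelled knockout. That of Ncr1 was -0.42 and 0.09. For both genes the wild-type vehicle mean was the highest of the 4 groups. It was 291.0 for Gzma, against 204.5 in wild-type PCB-153, 187.2 in labelled-knockout vehicle and 217.7 in labelled-knockout PCB-153 spleens. For Ncr1 it was 107.1, against 81.4, 88.9 and 96.1 in the same order. The wild-type PCB-153 effect, the label difference under vehicle and the interaction all share this group. The adjusted p of the interaction was 0.442 for Gzma and 0.481 for Ncr1. In limma without libraries 1 and 4 no member passed either (0.0315% of all genes higher, 0.0% lower), and 1 had an unadjusted p under 0.05 (2.86%, where 10.2% of all genes did).

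Ratios between genes of the same library do not depend on scaling between libraries, so 4 ratios were compared over 4 contrasts with an exact two-sided permutation test (16 tests, Benjamini-Hochberg adjusted). None passed, and the smallest p these group sizes allow is 0.00794. A ratio at that p had an adjusted p of 0.0635, so full separation of 2 groups did not suffice to pass here. The ratio of Cd3e to Cd79a sets a T cell gene against a B cell receptor gene. On the log2 scale it was -3.47, -3.49, -3.56, -3.39 and -3.42 in labelled-knockout vehicle and -3.02, -3.10, -2.98, -3.15 and -3.27 in labelled-knockout PCB-153 spleens. All 5 PCB-153 libraries lay above all 5 vehicle libraries, a difference of 0.36 (exact permutation p = 0.00794, adjusted 0.0635). Against wild-type PCB-153 spleens the difference was 0.29 (exact permutation p = 0.0159, adjusted 0.0847). Against labelled-knockout vehicle spleens Cd79a itself fell, with a log2 fold change of -0.64 with all libraries (limma adjusted p = 0.0212) and -0.38 without libraries 1 and 4 (adjusted p = 0.139).

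The ratio of Cd4 to Cd8a was -0.19, -0.21, 0.01 and -0.10 on the log2 scale in wild-type vehicle and 0.33, 0.34, 0.14, 0.19 and 0.08 in labelled-knockout vehicle spleens. The 2 groups did not overlap, with a difference of 0.33 (exact permutation p = 0.00794, adjusted 0.0635). After PCB-153 the labelled knockout and wild type differed by -0.04. The ratio of Foxp3 to Cd4 was lower in the labelled knockout under vehicle by 0.28 (exact permutation p = 0.0397, adjusted 0.159), with a Foxp3 level that is uncertain for the overlap given above. The ratio of Ncr1 to Cd3e differed most between labelled knockout and wild type after PCB-153, by 0.46 (exact permutation p = 0.103, adjusted 0.198).

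**Figure D4:**
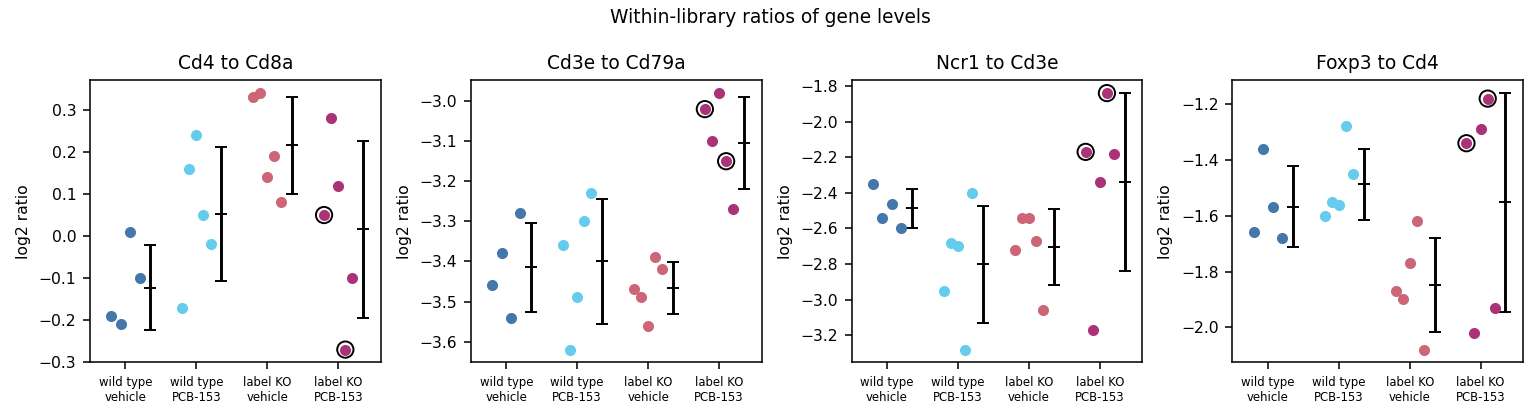
Log2 ratios of normalised read counts of 2 genes within a library, 1 point per library, with the mean and SD at the right of each group. Circles mark labelled-knockout PCB-153 libraries 1 and 4. Cd3e to Cd79a lies between -3.27 and -2.98 in labelled-knockout PCB-153 and between -3.56 and -3.39 in labelled-knockout vehicle spleens.

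Across the 19 libraries, 6 pairs of genes were correlated on the log2 scale with permutation tests. Cd3e and Cd4 had a Pearson r of 0.83 (permutation p = 8e-05, adjusted 0.00036) and a Spearman rho of 0.50 (p = 0.0286, adjusted 0.0429). Cd3e and Cd79a had r = 0.85 (permutation p = 0.00012, adjusted 0.00036) and rho = 0.55 (p = 0.0169, adjusted 0.0339). Without the 2 libraries farthest from the median, which were again labelled-knockout PCB-153 libraries 1 and 4, r was 0.53 and 0.50 (adjusted permutation p = 0.0666 for both). Cd4 and Cd8a had r = 0.67 (permutation p = 0.00128, adjusted 0.00256) and rho = 0.62 (p = 0.00533, adjusted 0.032), and r = 0.51 without the same 2 libraries (adjusted permutation p = 0.0666). In those 17 libraries the unadjusted permutation p was 0.0285, 0.0444 and 0.0373 for these 3 pairs, and none passed after adjustment. Cd3e and the erythroid gene Alas2 had r = -0.11 (permutation p = 0.649) and rho = -0.20 (p = 0.423, adjusted 0.484). Cd3e with the NK gene Klrb1c had r = 0.30 (permutation p = 0.218, adjusted 0.261) and rho = 0.17 (p = 0.484). On deviations from the group means r was 0.84 for Cd3e and Cd4, 0.87 for Cd3e and Cd79a, 0.75 for Cd4 and Cd8a and 0.40 for Ncr1 and Gzma. Over all libraries Ncr1 and Gzma had r = 0.53 (permutation p = 0.0198, adjusted 0.0297) and rho = 0.56 (p = 0.0143, adjusted 0.0339), and r = 0.51 without its own 2 farthest libraries (adjusted permutation p = 0.0666), so this pair missed the adjusted threshold at nearly the same r.

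Other genes of these pathways were read from lists that are not the members. In labelled-knockout PCB-153 against vehicle spleens, 4 of 28 T cell receptor signalling genes (14.3%) fell and 0 rose, with a median of -0.25, where 2.52% of all genes were called lower and 2.78% higher. These were Rasgrp1 (-0.47), Cblb (-0.30), Carmil2 (-0.42) and Ptprc (-0.40). Of 30 genes of T cell subsets and state 5 (16.7%) fell and 0 rose (median -0.28), among them Bach2 (-0.75), Satb1 (-0.45) and Klf2 (-0.43). Ptprc, Bach2 and Klf2 are also expressed by B cells. Of 40 NK receptor and effector genes 1 was called lower (2.5%, about the share of all genes), Klra1 (-0.73), a member of the Ly49 family of closely related copies, so its count is uncertain. After libraries 1 and 4 were left out, none of these 3 lists had a called gene, and their medians were -0.09, -0.10 and -0.14.

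**Figure D5:**
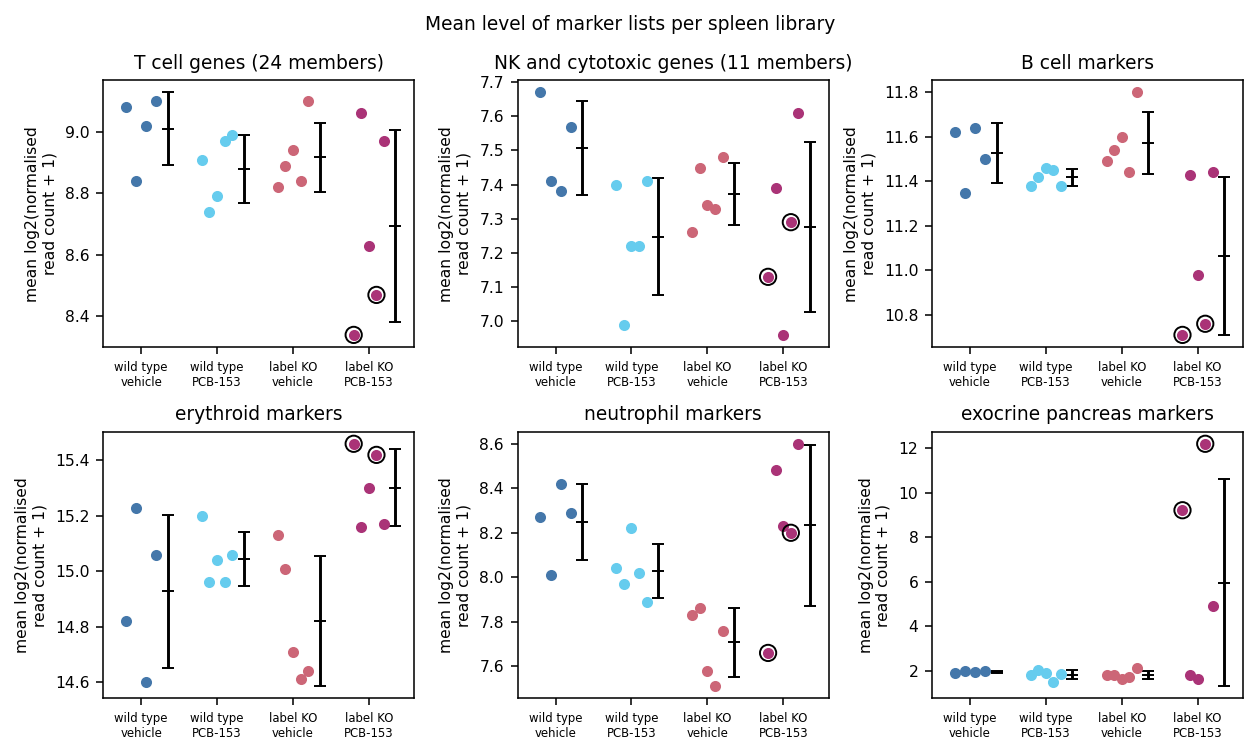
Mean log2(normalised read count + 1) of each list per library (points), with the mean and SD of each group at its right. Circles mark labelled-knockout PCB-153 libraries 1 and 4. The vertical axes differ between panels, and the circled libraries are the lowest of all 19 in the T cell and B cell panels and the highest in the pancreas panel.

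Markers of other spleen cells moved in the same comparison, read against the same 2.52% lower and 2.78% higher. Of 16 B cell markers 12 fell (median -0.55), and of 15 erythroid markers 7 rose (median 0.49). Of 16 neutrophil markers 7 rose (median 0.63), and of 12 cell division genes 3 rose (median 0.48). The summed B cell level was 53495 to 68872 under vehicle and 31860 to 53354 after PCB-153, or 39178 to 53354 without libraries 1 and 4. The summed neutrophil level was 4960 to 6482 under vehicle and 5783 to 10744 after PCB-153. Of 12 dendritic cell markers 2 fell, Siglech (-0.76) and Cd209a (-0.57), and the summed level was 9081 to 9661 under vehicle against 7057, 10281, 6803, 6730 and 9062 after PCB-153, with 4 of 5 libraries below the vehicle range. Of 4 lymphoid precursor markers tested 1 fell, Rag1 (-1.16). Of 12 fibroblast and stroma markers 1 rose, the collagen gene Col1a1 (0.44), and the summed level was 26021 to 30188 under vehicle and 26871 to 40564 after PCB-153. Without libraries 1 and 4 the shares of all genes were far smaller, with 0.0683% called lower and 0.063% higher. In that setting the stroma sums were 34732 to 40564, above all vehicle libraries (median 0.37, 1 of 12 called), and 0 dendritic cell or precursor markers were called. When libraries 1 and 4 were left out, no B cell, erythroid or cell division gene was called, with medians of -0.31, 0.40 and 0.25, and 6 neutrophil markers were (median 0.78). The part of these cell types in the T cell levels was not tested.

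Cd96, an adhesion receptor of NK and T cells from the NK receptor list, was the gene of the 3 pathway lists that differed by label with and without libraries 1 and 4. It lies on chromosome 16 (ENSMUSG00000022657.9, GRCm38 chromosome 16, 46035657 to 46120251), as does the targeted gene Nr1i2 (38248323 to 38294824). Its normalised counts were 183, 129.5, 149.7 and 174 in wild-type vehicle and 86.9, 83.2, 87.0, 60.0 and 101 in labelled-knockout vehicle spleens. After PCB-153 they were 166, 159, 114, 165 and 181 in wild type and 64.5, 73.0, 76.0, 82.7 and 87.2 in the labelled knockout. No labelled-knockout library reached the lowest wild-type one. The log2 fold change was -0.93 under vehicle (labelled knockout against wild type, limma adjusted p = 0.0194) and -1.02 after PCB-153 (adjusted p = 0.00186). Leaving out wild-type vehicle library 1 or 5, or labelled-knockout vehicle library 2 or 4, ended the call under vehicle (-0.86, -0.88, -0.93 and -0.81, with adjusted p = 0.135, 0.163, 0.0639 and 0.0625). The authors' deposited DESeq2 values are -0.93 under vehicle (adjusted p = 4.79e-05) and -1.03 after PCB-153 (adjusted p = 4.12e-08). Of the 3 pathway lists under vehicle, 0 of 28, 0 of 30 and 1 of 40 genes fell and none rose.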

How the data were processed

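RNA was sequenced from 19 spleens and 20 livers. Per the submitters' processing notes, FastQC, STAR 2.6.0, featureCounts and DESeq2 (given as 3.8) were used with the mm10 build. The deposited spleen table holds gene counts that the authors divided by size factors, a signal above 0 that is not scaled to length. Reads were recovered from its step size, and 100% of values came out whole within 0.05 reads. The deposited tables of comparisons hold the authors' log2 fold changes and adjusted p-values. The labels name both a stranded and a non-stranded kit, and the strand used in counting is not known here.

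Values were tested as log2(value + 1) with limma 3.58.1 (R 4.3.3, eBayes with trend) in 1 fit of 4 groups. Genes with a mean of at least 10 were kept (19058 of 54735), and p-values were Benjamini-Hochberg adjusted with a threshold of 0.05. A log2 fold change on this scale understates the change of low genes. edgeR 4.0.16 (quasi-likelihood, TMM) and DESeq2 1.42.0 on the recovered reads were alternatives. Others were pseudocounts of 0.5 and 5, no filter and a minimum mean of 50, quantile and TMM scaling, fits of only the 2 groups, a replicate block, and leaving out libraries. The limma script was tested on simulated data. Ratios used exact permutation tests and correlations 100000 permutations. Members and lists were chosen with earlier results of these data known. All 35 members are named. Of the other lists, up to 4 called genes per pathway and up to 2 per cell type with the smallest p, and each cell type's first gene, could be named. Gene positions are from GENCODE M21 (GRCm38), and liver values served only to check tissue identity.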

Additional observations from a re-analysis of the deposited data

Results flagged for a closer look

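A single library stood far from the others, relative to the range of its group, for 8 of 164 groups tested (4.88%). The groups were those of the 35 genes and other named measures, and about 1 in 20 is picked by chance. A flag can thus mark a small gap in a narrow group. For Prf1 in wild-type vehicle and Cd3d in wild-type PCB-153 the SD of the whole group was below the error of counting reads. All values are normalised reads. Wild-type vehicle had 2 such values. Cd4 was 785.1 in library 3 against 950.9 to 975.2 in the others, and Prf1 was 149.5 in library 1 against 129.5 to 132.6. Wild-type PCB-153 had 1, Cd3d at 395.2 in library 2 against 418.4 to 428.1. Labelled-knockout vehicle had 4. Library 5 was high for Cd3e (731.9 against 539.0 to 570.3) and Cd8a (1067.4 against 788.8 to 854.4). Icos was 156.9 in library 4 against 203.3 to 211.3, and Nkg7 was 262.9 in library 1 against 308.4 to 324.5. Labelled-knockout PCB-153 had 1, Gzmb at 21.2 in library 3 against 54.8 to 62.1.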

How the results depend on the processing

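In spleens labelled knockout, 1 member was called lower after PCB-153. The count was 0 without PCB-153 libraries 1 and 4 (also 0 there in edgeR and 0 in DESeq2), 0 with no filter on low values, 0 with only the 2 groups fitted, 0 in edgeR and 5 in DESeq2. It ranged from 0 to 9 when 1 library was left out. It was 9 without PCB-153 library 2, 6 without PCB-153 library 5, 2 without vehicle library 1, and 0 without PCB-153 library 1, 3 or 4 or vehicle library 2, 3, 4 or 5. With the replicate number as a block it was 3 (Il2ra, Cd2 and Ccr7). The share of all genes called is not given here for the fits with 1 library left out or with the block. These counts therefore have no background beside them and are not read as a result about the members. Same-numbered libraries had deviations correlated from -0.19 to 0.27 and 5 of 19 libraries correlated best with their own number, so the numbers were not taken as pairs. The counts in the other comparisons, and of members called higher in this one, were 0 in all alternatives run. The ratio of Cd4 to Cd8a between labels after PCB-153 (-0.04) was 0.05 without libraries 1 and 4 and -0.10 to 0.04 with 1 library left out. With 1 library left out, Cd3e to Cd79a after PCB-153 in wild type (0.02) ran from -0.02 to 0.07, and Foxp3 to Cd4 between labels after PCB-153 (-0.06) from -0.16 to 0.05. In spleens labelled knockout the ratios of Cd3e to Cd79a (0.33 to 0.40) and Ncr1 to Cd3e (0.24 to 0.57) passed the adjusted test only without PCB-153 library 2, at 0.36 and 0.57 (exact permutation, adjusted p = 0.0423 for both). Without the 2 farthest libraries, Pearson r fell short of the threshold for Cd3e and Cd4 (0.53), Cd4 and Cd8a (0.51), Ncr1 and Gzma (0.51) and Cd3e and Cd79a (0.50). Without libraries 1 and 4 it did so at 0.53, 0.51, 0.53 and 0.50, and on deviations from group means for Ncr1 and Gzma (0.40). For Cd3e and Alas2 r was -0.11, and 0.10, 0.10 and 0.31 under these 3 settings. For Cd3e to Cd79a in spleens labelled knockout, the difference without PCB-153 library 2 was the same 0.36 as with all libraries. The cause of these shifts was not tested. Each group held 4 or 5 libraries, and the lowest median of a member was 44.5 normalised reads. For 14 of 140 combinations of member and group the SD between libraries was at or below the counting error, as for Gzmb in labelled-knockout vehicle (mean 38.2, SD 4.6, counting error 6.1). In the same group this also held for Il7r (SD 26.1, counting error 31.2) and Il2ra (SD 9.9, counting error 11.8). The smallest difference between groups that could be detected at this depth was not computed.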
